A study of Mus musculus with 6 samples.

Results

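The mitochondrial ribosomal proteins were taken as every protein-coding entry of the mouse liver count table whose symbol begins with Mrpl or Mrps and a number, which gave 75 genes of 41096 entries with a gene name. Of these, 47 carry a large subunit symbol (Mrpl) and 28 a small subunit symbol (Mrps). Polyadenylated liver RNA was sequenced in 6 libraries. The livers of 3 came from unexposed mice and the other 3 from mice exposed to the plasticiser DEHP, a phthalate ester. The design text of the record describes another assay, bisulfite sequencing of human HepG2 cells, and the groups used here rest on sample titles only. The columns of the exposed libraries carry the word High. The labels give no strain, sex, age, dose, route or duration, nor is it stated that each library came from a separate mouse, so p-values measure the spread between these libraries, which may be partly technical.

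Mitochondria translate the few proteins of their own genome on a ribosome of their own, the mitoribosome. Its ribosomal RNAs are encoded by mitochondrial DNA, whereas all of its proteins are encoded in the nucleus, made in the cytosol and imported. The products of mitochondrial translation are core subunits of the respiratory chain and ATP synthase, on which hepatocytes depend for oxidation of fatty acids. Some mitoribosomal proteins descend from bacterial ribosomal proteins, while others have no bacterial counterpart.

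Libraries held 10042875 to 13841280 counts in entries with a gene name. Of the 75 genes, 74 passed the filter on low counts and were tested. Mrpl53 had 0 counts in all 6 libraries, and the whole of its 900 bases overlaps another protein-coding entry on the same strand, Gm42688. Control replicates 1 and 2 stood apart from the other 4 libraries in interferon-stimulated genes: the 25 such genes with an entry summed to 4569, 3676 and 446 CPM (counts scaled to a common library total) in controls 1, 2 and 3, and to 473, 411 and 472 in the exposed libraries. The 13 tested macrophage and Kupffer cell markers moved with them, at 1148, 1039 and 294 CPM in the controls and 308 to 467 in the exposed libraries; 5 of the 13 had an unadjusted p under 0.05, all lower with DEHP, against 6.97% of all genes. Stellate cell markers summed to 462, 379 and 567 CPM in the controls and 250, 314 and 296 with DEHP, with 4 of 10 lower at that p. Sinusoidal endothelial markers summed to 369, 357 and 444 CPM and to 289, 197 and 365, with 3 of 9 lower. Of 11 hepatocyte markers, 4 were higher and 1 lower at that p, against 6.11% and 6.97% of all genes. Their sums overlapped between groups. Of the B and T lymphocyte (4 tested), cholangiocyte (5) and neutrophil (2) markers, 0 had such a p. Lymphocyte markers summed to 41.9 CPM in exposed replicate 3 and to 9.86 to 13.7 CPM in the other libraries. The part of these cells in the results below was not tested. In bulk liver, fewer cells of a type and less RNA per cell cannot be told apart.

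No mitochondrial ribosomal protein gene passed the test between exposed and control livers. With edgeR's quasi-likelihood test and Benjamini-Hochberg adjustment over 12468 genes, 0 of 74 were called at an adjusted p of 0.05, against 9 of all genes (0.0722%, of which 0.0561% higher and 0.016% lower); the lowest adjusted p among the 74 was 0.236. DESeq2, limma-voom and limma-voom with robust moderation also called 0 of the 74. At an unadjusted p under 0.05 there were 5 of 74 (6.76%), all with higher values after DEHP, against 13.1% of all genes (6.11% higher and 6.97% lower). Values of the groups did not overlap for 10 genes (13.5%), with the exposed livers higher in each; among all genes 17.7% were without overlap, 9.17% with the exposed livers higher and 8.57% with them lower.

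The precision was enough to bound most of these differences. The median log2 fold change of DEHP over control was 0.07 for the 74 genes, with a middle range of -0.11 to 0.24 and extremes of -0.51 and 0.63. Over all genes tested the median was -0.03. Of all genes, 47.1% had a positive log2 fold change, and of the 74, 62.2%. The 95% interval of the fold change lay within 1 log2 unit of 0, which is a doubling or a halving, for 70 of the 74 (94.6%), compared with 55.3% of all genes and 81.4% of the 5077 genes at a similar level. Intervals of Mrpl52, Mrps18a, Mrps18c and Mrps36 reached past that bound.

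**Figure D1:**
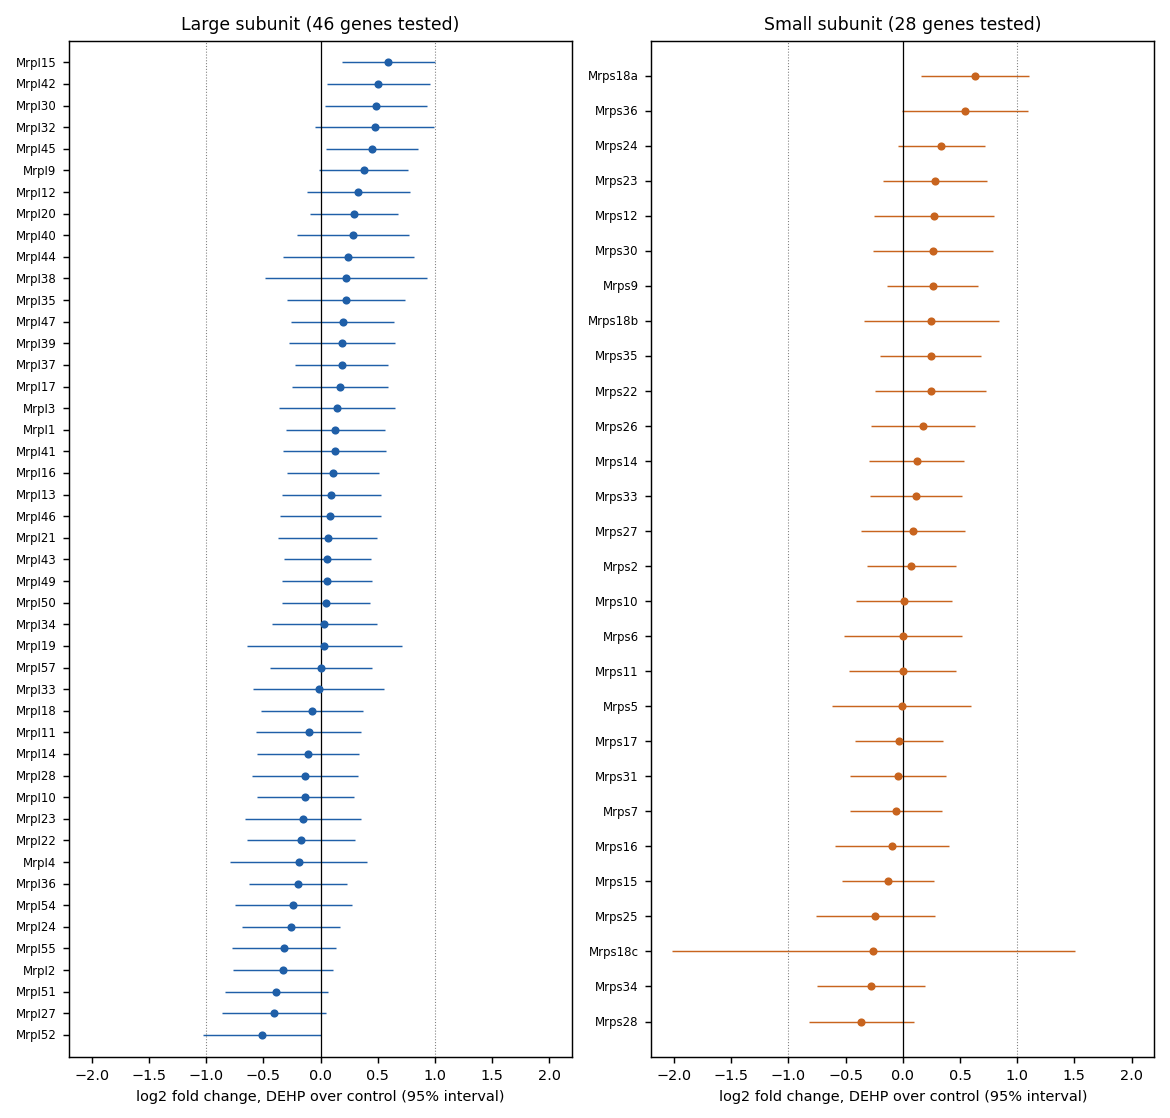
Log2 fold change of DEHP over control for each tested large subunit gene (left, 46 genes) and small subunit gene (right, 28 genes), in order of size; points are estimates from edgeR, bars are 95% intervals, and dotted lines stand at -1 and 1. Estimates run from -0.51 to 0.63 and most intervals cross 0.

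Both subunits had similar values. The large subunit genes had log2 fold changes with a median of 0.06 and 29 of 46 were positive. The small subunit genes had a median of 0.08 and 17 of 28 were positive; that median was 0.03 without control replicate 1 or without exposed replicate 2, and 0.14 without control replicate 2. Neither subunit had a member past the threshold.

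Summed over the large subunit, expression was 2313, 2033 and 2037 CPM in control replicates 1, 2 and 3 and 2313, 2098 and 2136 CPM in the exposed livers. The groups overlapped, at 2128 ± 161 and 2182 ± 115 CPM (SD, n = 3 each). Summed over the small subunit, expression was 962, 965 and 900 CPM in the controls and 984, 1020 and 988 CPM with DEHP. Here the 3 exposed livers lay above the 3 controls by a small margin, at 997 ± 19.8 against 943 ± 36.8 CPM (SD, n = 3 each), a difference of 5.82%. As the genes were chosen with earlier results known, these sums carry no test.

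The ratio of large to small subunit CPM was 2.40, 2.11 and 2.26 in the controls and 2.35, 2.06 and 2.16 with DEHP. The groups overlapped, with 2.26 ± 0.149 and 2.19 ± 0.149 (SD, n = 3 each). The genes together took 0.284% to 0.334% of counts in the controls and 0.301% to 0.324% in the exposed livers.

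**Figure D2:**
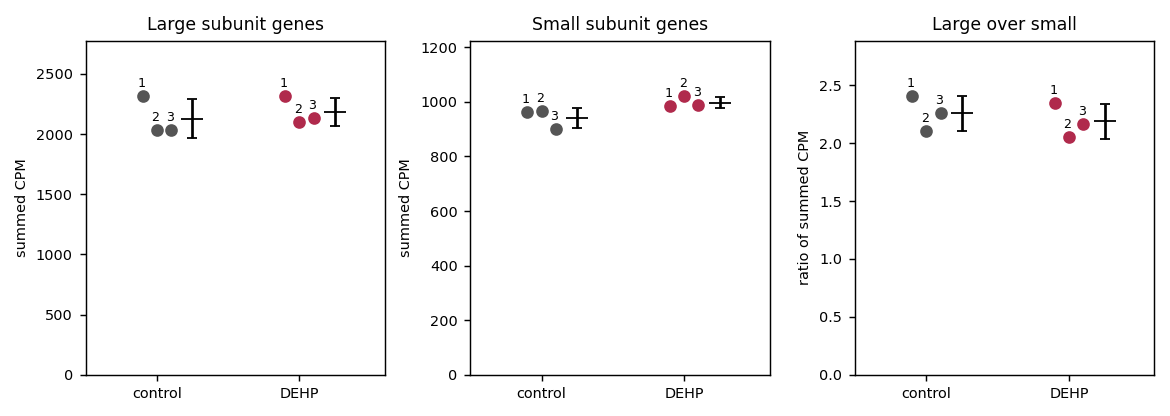
Summed CPM of large subunit genes, summed CPM of small subunit genes, and their ratio, for each library; numbers beside points are replicate numbers, and the bars are the mean and SD of 3 libraries. The ratio overlaps between groups, whereas the small subunit sums, with subunits assigned by symbol, do not.

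Symbols do not follow the structure of the particle in every case. Mrps18a and Mrps30 products sit in the large subunit of the solved mammalian mitoribosome, and the Mrps36 product is now known as a component of the 2-oxoglutarate dehydrogenase complex. Assigned by structure, the 48 large subunit genes had log2 fold changes with a median of 0.07 and the 25 small subunit genes 0.01. The small subunit sums above follow symbols and so include Mrps18a, Mrps30 and Mrps36, with log2 fold changes of 0.63, 0.26 and 0.54. The lack of overlap in those sums therefore rests partly on these genes, and sums by structure are not given.

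The 5 genes with an unadjusted p under 0.05 were Mrpl15, Mrps18a, Mrpl42, Mrpl45 and Mrpl30. Mrpl15, a core large subunit protein of bacterial descent (chromosome 1, 1901332 to 1920220 in the table's own coordinates), had 50.7, 63.5 and 55.2 CPM in the controls and 77.3, 97.0 and 81.5 CPM with DEHP. All 3 exposed livers lay above all 3 controls. Its log2 fold change was 0.59 ± 0.19 (SE; edgeR adjusted p = 0.236), or 1.51-fold with a 95% interval of 1.14 to 2.00.

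Mrps18a encodes 1 of 3 mammalian relatives of a single bacterial small subunit protein. It measured 14.7, 14.9 and 19.8 CPM in the controls and 22.7, 24.9 and 28.5 CPM in the exposed livers. Again the groups did not overlap. The log2 fold change was 0.63 ± 0.22 (SE; edgeR adjusted p = 0.274). The other relatives differed in level: Mrps18b had 7.94, 15.6 and 15.5 CPM in the controls and 14.9, 16.6 and 14.9 with DEHP, with control replicate 1 lowest. Mrps18c was the lowest of all tested members, with 3, 39 and 10 counts in the controls and 15, 9 and 14 with DEHP, too few to show a direction (95% interval of the log2 fold change -2.02 to 1.5).

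Mrpl45 lies at the exit of the nascent chain and holds the particle at the inner membrane. It had 39.3, 30.8 and 33.8 CPM in the controls and 51.2, 46.3 and 44.6 CPM with DEHP, without overlap, and a log2 fold change of 0.45 ± 0.19 (SE; edgeR adjusted p = 0.344). Mrpl42, a large subunit protein with no bacterial counterpart, had 39.6, 42.2 and 55.5 CPM in the controls and 52.4, 76.2 and 66.1 with DEHP. Control replicate 3 lay above exposed replicate 1, so the groups overlapped, and the log2 fold change was 0.50 ± 0.21 (SE; edgeR adjusted p = 0.344).

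Mrpl30, of bacterial descent, had 62.2, 61.9 and 52.7 CPM in the controls and 66.2, 105 and 75.5 with DEHP. Exposed replicate 2 was far above the rest, and without it the log2 fold change was 0.28 in place of 0.48. Mrps36 had 12.5, 10.04 and 18.2 CPM in the controls and 20.5, 22.1 and 16.7 with DEHP, and its groups overlapped. The other genes without overlap between groups were Mrpl9, Mrpl20, Mrpl32, Mrpl47, Mrps9 and Mrps24, with log2 fold changes of 0.19 to 0.47.

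With control replicates 1 and 2 left out, which leaves 1 control assumed to vary like the exposed livers, the median of the 74 genes was 0.08 and 48 were positive. The log2 fold changes were then 0.64 for Mrpl15, 0.37 for Mrps18a, 0.24 for Mrpl42, 0.50 for Mrpl45 and 0.66 for Mrpl30. Over all genes the median in that setting was 0.02.

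**Figure D3:**
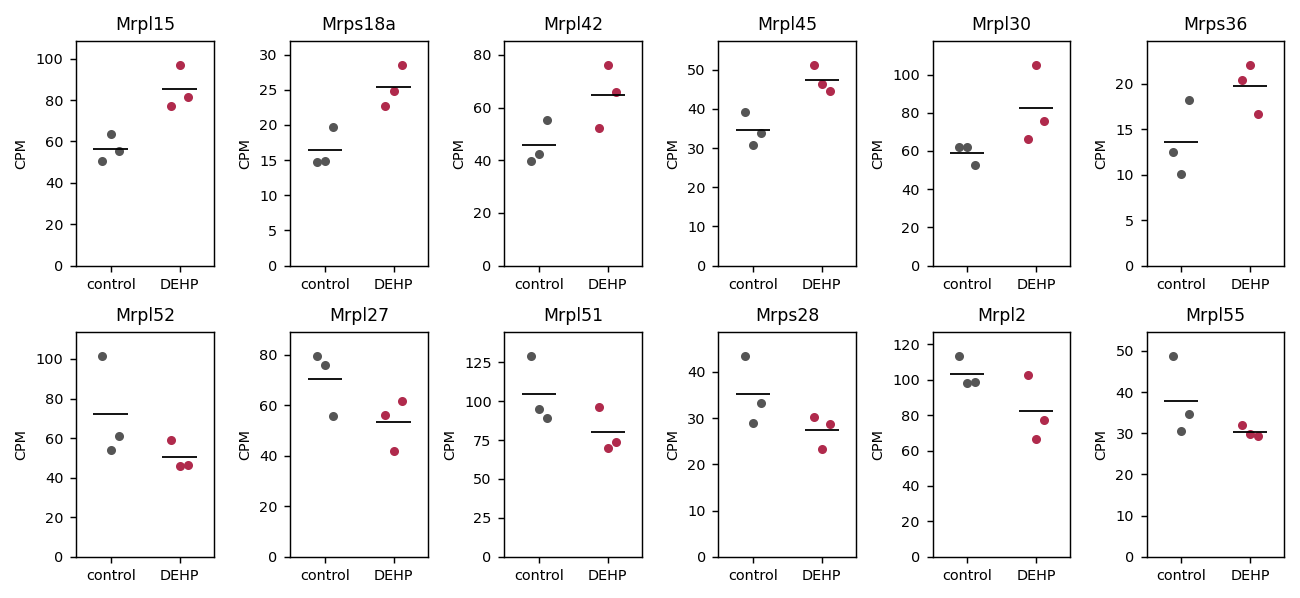
CPM in each library for the 6 genes with the smallest unadjusted p among those higher with DEHP (top) and among those lower (bottom); points are libraries in replicate order and lines are means of 3. In the top row Mrpl15, Mrps18a, Mrpl45 and Mrpl30 have no overlap between groups, and in the bottom row every gene overlaps.

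At the other end stood Mrpl52, Mrpl27, Mrpl51, Mrps28, Mrpl2 and Mrpl55, and all 6 had groups that overlapped. Mrpl52, a large subunit protein with no bacterial counterpart, had 101, 53.9 and 61.1 CPM in the controls and 59.0, 46.1 and 46.6 with DEHP. Its log2 fold change was -0.51 ± 0.24 (SE; edgeR adjusted p = 0.383), and it was -0.18 without control replicate 1. Control replicate 1 also had the highest value of Mrpl51 (129 CPM), Mrps28 (43.4 CPM), Mrpl2 (113 CPM), Mrpl55 (48.8 CPM) and Mrpl27 (79.5 CPM), the last a protein near the peptidyl transferase centre.

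Single libraries set several other values. Mrpl38 had 93.1, 115 and 104 CPM in the controls but 196, 70.8 and 98.5 with DEHP, with exposed replicate 1 highest and exposed replicate 2 lowest of all 6. Its log2 fold change was 0.22 ± 0.32 (SE) and became -0.28 without exposed replicate 1. Exposed replicate 2 was the highest library for 22 of the 74 genes and the lowest for 18, and control replicate 1 was the highest for 21.

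**Figure D4:**
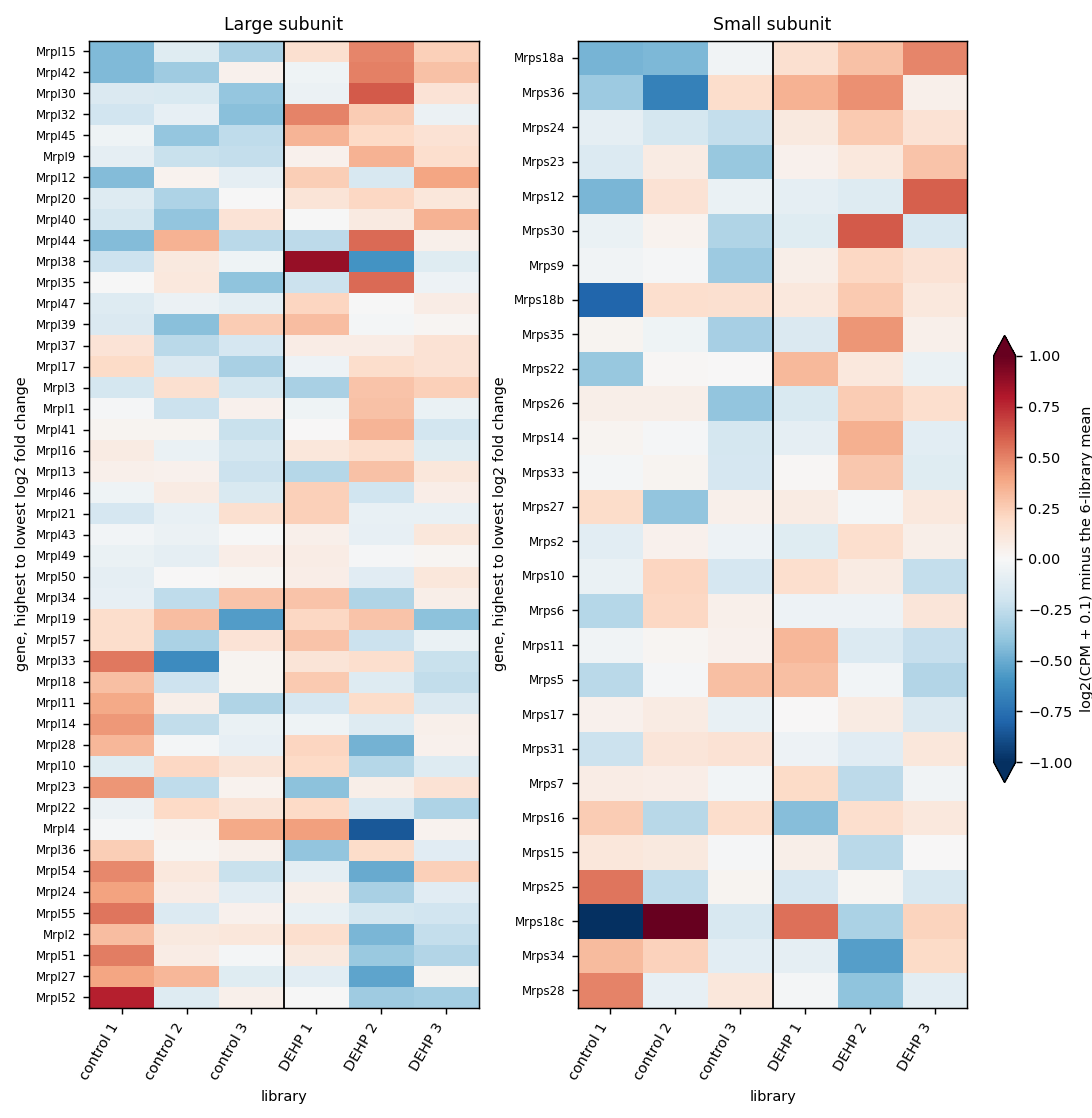
Expression of each tested gene in each library, as log2 CPM (with a small constant added) minus its mean over the 6 libraries; red is above and blue below the mean, the line separates control from exposed libraries, and colours saturate at -1 and 1. Control replicate 1 and exposed replicate 2 hold many of the strongest colours in both directions.

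Mrpl12, the stalk protein that contacts translation factors, had 45.4, 63.1 and 57.8 CPM in the controls and 73.1, 55.0 and 81.0 with DEHP (log2 fold change 0.33 ± 0.21, SE; edgeR adjusted p = 0.526). It was 0.21 without control replicate 1 and 0.21 without exposed replicate 3. Mrpl11, at the base of the stalk, had 50.9, 40.8 and 31.7 CPM in the controls and 34.8, 44.6 and 35.5 with DEHP. Mrps12, of the decoding centre, had 19.9, 30.3 and 26.1 CPM in the controls and 25.7, 25.04 and 41.4 with DEHP. The groups overlapped for all 3 genes.

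Levels between genes were compared per length of the gene model, as RPKM (CPM divided by that length). In the controls the highest were Mrpl14 at 103, Mrpl2 at 89.5 and Mrpl34 at 74.3 RPKM, all large subunit genes, and the highest small subunit gene was Mrps7, a protein of the small subunit head, at 54.7. The lowest were Mrps18c at 1.15, Mrps5 at 1.54 and Mrpl19 at 1.73 RPKM. The median was 21.8 RPKM for large and 12.5 RPKM for small subunit genes. Long gene models lower this value, since the model merges all transcripts of a gene.

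Fold changes were spread along the length of the gene model. The 25 genes with the shortest models (566 to 1415 bases) had log2 fold changes with a median of -0.10, with 11 positive. The 24 in between had a median of 0.06. The 25 with the longest models (2596 to 8649 bases) had a median of 0.17, with 20 positive. Groups did not overlap for 7 of these 25 (28%), all higher with DEHP, against 17.7% of all genes (9.17% higher). All 12468 tested genes, split at the same cut points with no outer limits, had medians of -0.04, -0.04 and -0.03. These classes held 1509, 2340 and 8619 genes, so they were not matched in length to the 74. The contrast rested partly on 1 library: without exposed replicate 2 the longest and shortest models had medians of 0.05 and -0.02. Across the 74 genes, which share the same 6 libraries, Spearman's rho of length and fold change was 0.269. Over all 12468 genes tested it was 0.0428.

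Genes were also grouped by descent. The 45 classed as having a bacterial counterpart had log2 fold changes with a median of 0.0036 and 23 were positive. The 29 classed as having none had a median of 0.18 and 23 were positive. Leaving out each library in turn gave medians of 0.12 to 0.17 for the latter and -0.02 to 0.07 for the former. Absence of overlap between groups went the other way. It was seen for 8 of the 45 (17.8%) and 2 of the 29 (6.90%), all higher with DEHP. Among all genes it was 17.7% (9.17% higher). Of the relatives of the bacterial protein described above, Mrps18c was counted as its counterpart, and Mrps18a (0.63) and Mrps18b (0.25) were placed with the genes that have none. Mrpl55 (-0.32) was counted among the 45, an assignment that is doubtful. Mrps36 (0.54), whose product is placed in another complex above, was counted among the 29. The medians were not recomputed with either gene moved. This grouping was made with the results known and carries no test.

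Promoters were examined for short motifs of factors known for nuclear genes of mitochondria. RefSeq promoter windows of 300 bases (250 before to 50 after the start, GRCm38.p6) were found for 66 of the 75 genes, in 69 entries, and searched on both strands. The NRF1 motif was in 17.4% of the 69 and in 4.6% of all 32851 promoters. The ETS motif CCGGAAG was in 33.3% and 8.86%, and the YY1 motif AAGATGGC in 17.4% and 2.75%. The SP motif GGGCGG was in 52.2% and 35.7%, the E-box CACGTG in 10.1% and 7.15%, and TATAAA in 5.80% and 13.6%. Member promoters had a median GC content of 58.7%, and all promoters 52.7%. The 12 tested genes with an NRF1 match had log2 fold changes with a median of 0.25, and the 53 without one 0.05. The same medians were 0.20 and 0.06 for YY1, 0.06 and 0.08 for ETS, 0.06 and 0.08 for SP, -0.20 and 0.08 for the E-box (5 genes with a match) and 0.10 and 0.06 for TATAAA (4 genes), so the direction differed between motifs. A match describes letters only and shows no binding.

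The part of the window before any annotated exon is shown for 4 genes whose values are given above, chosen because they hold an NRF1 or ETS match; capitals mark NRF1 or ETS matches on either strand, and each is read 5′ to 3′ along the gene's own strand. Mrpl12 (chr11:120484387-120484612, plus strand) and Mrpl45 (chr11:97315466-97315715, plus strand) hold NRF1 matches, 1 and 2. Mrps18a (chr17:46110754-46110985, plus strand) and Mrpl52 (chr14:54426659-54426908, plus strand) hold 1 ETS match each. The ETS match occurs in the genes with the highest and the lowest fold change of the 74. The same stretches of Mrpl30, Mrpl42 and Mrpl27, also described above, held 0 matches to either motif and are not printed. They were 65, 250 and 24 bases long, so those of Mrpl30 and Mrpl27 left little room for a match. No such stretch was obtained for Mrpl51.
Mrpl12: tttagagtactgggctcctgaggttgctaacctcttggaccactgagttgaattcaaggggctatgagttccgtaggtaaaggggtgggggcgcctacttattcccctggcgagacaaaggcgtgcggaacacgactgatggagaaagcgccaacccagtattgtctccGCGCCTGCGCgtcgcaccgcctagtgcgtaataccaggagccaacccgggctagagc
Mrpl45: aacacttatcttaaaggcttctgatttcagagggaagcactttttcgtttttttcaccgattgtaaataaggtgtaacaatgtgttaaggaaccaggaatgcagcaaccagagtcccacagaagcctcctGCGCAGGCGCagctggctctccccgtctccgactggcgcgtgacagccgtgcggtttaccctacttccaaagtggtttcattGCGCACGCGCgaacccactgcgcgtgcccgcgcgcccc
Mrps18a: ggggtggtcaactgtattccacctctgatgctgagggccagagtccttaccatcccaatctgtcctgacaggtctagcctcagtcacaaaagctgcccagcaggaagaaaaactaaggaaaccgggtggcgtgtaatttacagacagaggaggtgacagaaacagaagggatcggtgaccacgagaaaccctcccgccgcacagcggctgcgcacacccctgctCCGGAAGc
Mrpl52: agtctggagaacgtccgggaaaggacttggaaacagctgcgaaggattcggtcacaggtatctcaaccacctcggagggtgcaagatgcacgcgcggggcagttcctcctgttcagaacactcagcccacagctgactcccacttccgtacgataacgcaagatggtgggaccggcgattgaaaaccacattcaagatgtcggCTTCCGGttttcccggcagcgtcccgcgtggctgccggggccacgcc

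Genes that act with the mitoribosome were taken from lists, and none of them passed the test either. Among proteins of the particle without an Mrp symbol (6 tested, 0 called, median log2 fold change -0.11), the small subunit protein Chchd1 had 15.7, 21.7 and 20.5 CPM in the controls and 27.5, 31.5 and 28.5 with DEHP, without overlap (0.60 ± 0.21, SE; edgeR adjusted p = 0.274). Dap3, a GTP-binding small subunit protein, had 78.2, 49.2 and 40.7 CPM in the controls and 36.1, 43.1 and 48.3 with DEHP, which overlapped. The 12 translation factors had a median of -0.04, and the 23 assembly and rRNA modification factors 0.02.

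The 20 mitochondrial aminoacyl-tRNA synthetases, which charge the tRNAs, had log2 fold changes with a median of -0.13, with 0 called and 4 at an unadjusted p under 0.05, all lower, a share of 20% against 6.97% of all genes that were lower at that p. Groups did not overlap for 3 with lower values after DEHP (Tars2, Cars2 and Vars2) and 2 with higher values (Yars2 at 0.49 and Fars2 at 0.37). Together that was 25% of the 20, against 17.7% of all genes (9.17% higher and 8.57% lower). Tars2, the threonyl enzyme, had 47.5, 30.8 and 32.5 CPM in the controls and 25.5, 24.3 and 23.7 with DEHP, without overlap (-0.59 ± 0.21, SE; edgeR adjusted p = 0.288; -0.37 without control replicate 1). Cars2, the cysteinyl enzyme, had 12.3, 9.96 and 13.0 CPM in the controls and 8, 6.80 and 7.65 with DEHP, also without overlap.

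Among 24 genes of mitochondrial transcription and RNA processing (median 0.09, 0 called), Tfb2m, an initiation factor of mitochondrial transcription, had the highest fold change and the lowest adjusted p. It had 12.5, 13.1 and 12.2 CPM in the controls and 22.1, 30.1 and 24.2 with DEHP, so that every exposed liver lay well above every control. Its log2 fold change was 1.01 ± 0.22 (SE; edgeR adjusted p = 0.129). It passed with DESeq2 (adjusted p = 0.00879), with edgeR and no low-count filter (0.00389) and with edgeR without control replicate 3 (0.0444), and over the other alternatives its adjusted p ran from 0.0928 to 0.721. Grsf1, an RNA-binding protein of mitochondrial RNA granules, had 70.3, 102 and 90.7 CPM in the controls and 119, 139 and 116 with DEHP (0.51 ± 0.20, SE; edgeR adjusted p = 0.322).

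Nuclear subunits of complex I, which join the products of mitochondrial translation, had log2 fold changes with a median of 0.11 (36 tested, 26 positive, 0 called). Those of complexes II to V had a median of 0.24 (39 tested, 32 positive, 0 called). Cytosolic ribosomal proteins had a median of 0.15 (69 tested, 51 positive, 0 called). These genes have many near-identical pseudogenes, which may make their values uncertain, and this was not tested. The differences between these lists and the mitoribosomal genes were not tested.

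**Figure D5:**
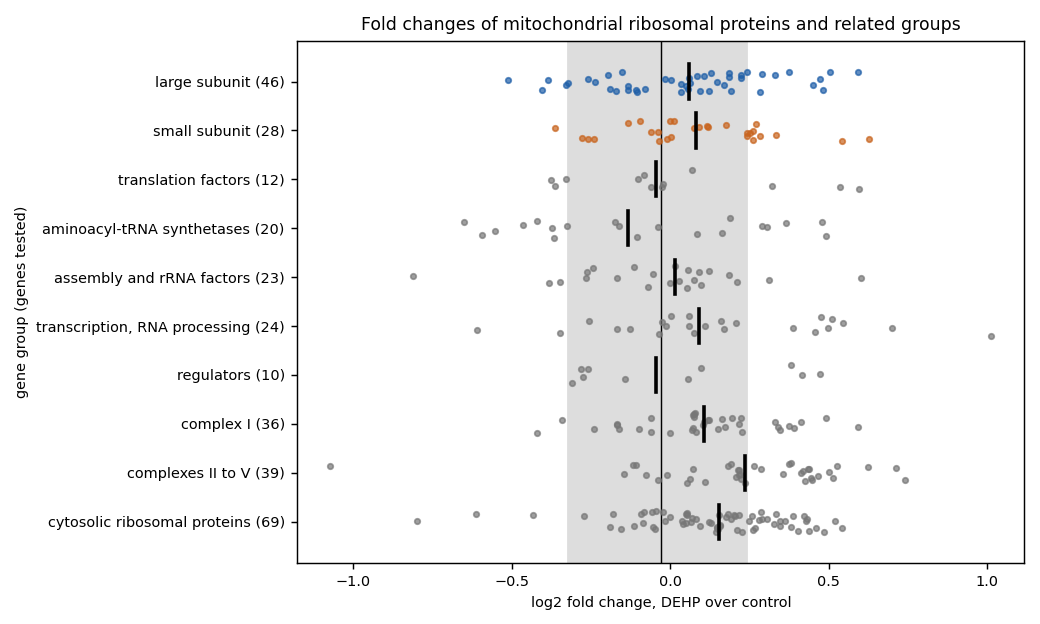
Log2 fold change of DEHP over control for each tested gene (points) in the 2 mitoribosomal subunits and in related groups, with group medians (thick bars); the shaded band is the middle 50% of all tested genes and the line their median of -0.03. Medians run from -0.13 for the aminoacyl-tRNA synthetases to 0.24 for complexes II to V, and the Tfb2m point lies farthest to the right.

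Some counts could mix genes. Of the 74, 35 overlap another entry, and the library kit marks strand but whether counting used strand was not stated in the labels. Mrpl46 of the large and Mrps11 of the small subunit overlap head to head by 413 bases, with log2 fold changes of 0.083 and -0.0020. The 39 genes without an overlap had a median of 0.11 and the 35 with one 0.06. A further 56 entries are pseudogenes described as mitoribosomal proteins; 15 had any count, at most 46 in a library. The entries described as Mrps21 and Mrpl48 carry identifiers in place of symbols and were outside the rule, with log2 fold changes of -0.05 ± 0.26 and 0.21 ± 0.21 (SE).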

How the data were processed

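Read counts per gene, unnormalized, were deposited by the authors as 1 table, made from paired-end, strand-marking libraries of polyadenylated liver RNA, per the labels' protocols. The submitters' processing notes name GRCm38.p6; no aligner or counter is named there. The gene identifiers are of the C57BL/6NJ strain annotation, so table coordinates were not mixed with RefSeq's. The deposited gene model length was used for RPKM.

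The 1284 entries with no gene name (2.73% to 4.28% of counts) were left out. The test was that of edgeR 4.0.16 (R 4.3.3), with filterByExpr with a minimum count of 10, TMM scaling, robust quasi-likelihood test, two-sided, Benjamini-Hochberg adjustment over 12468 genes, threshold 0.05. CPM use TMM-scaled totals, and standard errors come from the test statistic. The script was tested on simulated data. Alternatives were RLE scaling, other filters, DESeq2 1.42.0, limma-voom (limma 3.58.1), a replicate block, a non-robust fit, other memberships and each library left out. Leaving out control replicates 1 and 2 together, and limma-voom with robust eBayes, were chosen after seeing the data; the latter was added after the default limma-voom fit had been seen to call 2 genes.

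The members and lists were chosen with earlier results of these data known. Named genes are the 6 members of smallest unadjusted p in each direction, the 3 highest and 2 lowest of each subunit, and 2 of each related list. To these were added 11 symbols of known role, of which Mrpl58 had no entry under that symbol. Genes without overlap between groups, and Mrpl34, were picked once values were known. Some genes under this rule are not described.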

Additional observations from a re-analysis of the deposited data

How the results depend on the processing

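No mitoribosomal gene was called under any setting run. Over all genes, against 9, edgeR with no low-count filter called 496, DESeq2 272 and limma-voom 2; limma-voom with robust eBayes, added after that count was seen, called 7. Leaving out each library gave 5 (without control replicate 1 or exposed replicate 3) to 400 (without control replicate 3), and leaving out control replicates 1 and 2 together, also chosen after seeing the data, gave 0 with edgeR (642 at an unadjusted p under 0.05). The median of the small subunit was 0.0117 with subunits by structure; among settings that left out 1 library, the lowest value was 0.0271 (control replicate 1) and the highest 0.135 (control replicate 2). The log2 ratio of large to small subunit was -0.04, and -0.10 to 0.0022 with each library left out.

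Replicate numbers gave no sign of pairing (correlations of same-numbered deviations -0.0212, 0.0565 and -0.0277). Those of different numbers ran from -0.0465 to 0.06. With 3 libraries in each group this cannot show that the libraries were unpaired. With a replicate block 6 genes and 0 members were called. Of 448 alternative values of the 28 named members, 419 kept their direction and 29, in 12 genes, reversed. Mrps5 became 0.0035 with RLE scaling, 0.0168 with no filter, 0.0037 with a mean of at least 1 CPM, 0.0035 with DESeq2 and 0.0013 with unnamed loci added. Mrps18c became 0.43 with limma-voom of either kind and 0.24 with the replicate block. Without control replicates 1 and 2, Mrpl11 became 0.29, Mrpl14 0.0410, Mrps17 0.0673, Mrps18c 0.39 and Mrps7 0.0166. With each library left out, log2 fold changes that reversed ran as follows: Mrpl11 -0.236 to 0.0802, Mrpl14 -0.241 to 0.116, Mrpl19 -0.16 to 0.23, Mrpl38 -0.28 to 0.51, Mrpl44 -0.0034 to 0.52, Mrps12 -0.0025 to 0.42, Mrps17 -0.0749 to 0.0254, Mrps18b -0.0078 to 0.42, Mrps18c -0.78 to 1.10, Mrps30 -0.0236 to 0.408, Mrps5 -0.16 to 0.17 and Mrps7 -0.16 to 0.0576. The cause was not tested. Mrps18c had the fewest counts, 3 to 39 in a library.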
